A study of Mus musculus with 15 samples.

Results

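Endothelial cells line the blood vessels of adipose tissue, and 10 genes that mark them are described here: Cdh5, Pecam1, Esam, Kdr, Flt1, Tie1, Tek, Eng, Emcn and Vwf. The genes were chosen by name as markers of the cell type, with earlier results of these data known. Each had exactly 1 probe set, the group of array probes that reads 1 gene, so the 10 genes had 10 probe sets among 19938 named genes. Their probe sets lay on 8 chromosomes, and 0 of the 10 lay on chromosome 19, which carries Sfrp5. Levels are on a log2 scale, on which a difference of 1 is a doubling, and levels of different probe sets were not set against each other.

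The tissue was gonadal white fat of male C57BL6/J mice, of which 8 were Sfrp5 KO (Q27Stop) and 7 were wild type. Sfrp5 is a secreted protein that binds Wnt ligands, and the allele carries a premature stop. The labels name no tissue-limited driver for the allele, and do not say whether the mice were littermates. Both genotypes had eaten high-fat food for 8 weeks, from 4 weeks of age until 12 weeks of age, with 1 array for each mouse. All the comparisons below are therefore between genotypes on that diet, with no lean mice analysed here.

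Endothelial cells hold to each other through junctions built on VE-cadherin, grow and survive through receptors for vascular endothelial growth factor (VEGF) and angiopoietins, and store clotting factors. In fat, their capillaries deliver fatty acids and hormones to adipocytes, and the vessel bed has to grow as a depot expands. In whole tissue, fewer cells of a type and less RNA per cell cannot be told apart, and this holds for every level below.

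Sfrp5 read 6.69 ± 0.40 in Sfrp5 KO arrays (SD, n = 8) and 7.92 ± 0.24 in wild-type arrays (SD, n = 7), and the genotypes did not overlap. The difference, here and throughout KO minus wild type, was -1.23 (SE 0.16), with limma's Benjamini-Hochberg adjusted p = 0.0200. With 1 mouse left out in turn, the difference ran from -1.29 to -1.13 with adjusted p from 0.00413 to 0.0670, and it missed the threshold without KO replicate 2, 5 or 8 or wild-type replicate 2, 3, 4 or 5. Array medians lay between 6.99 and 7.07. A pair of mice, KO replicate 2 and wild-type replicate 4, stood apart in the endothelial genes. They also had the highest means of 7 measured epididymis genes in their genotypes. That mean was 10.69 for KO replicate 2 and 7.11 for wild-type replicate 4, with the remaining 13 mice between 5.69 and 6.89. Low values were not limited to endothelial genes. KO replicate 2 also had the lowest KO means of adipocyte (11.10), macrophage (8.73) and progenitor (9.91) genes, but not of mural or lymphocyte genes. Wild-type replicate 4 had the lowest wild-type mean of macrophage genes (8.97) and the highest of progenitor genes (10.10). The epididymis adjoins this fat pad, and the part of its RNA in the endothelial results was not tested. Results that rest on KO replicate 2 and wild-type replicate 4 are given with and without them, unless stated otherwise.

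The promoters of the gene pairs that varied together most closely, among the 6 genes with a promoter in the RefSeq table used here (Eng, Emcn, Tek, Tie1, Kdr and Flt1), are shown so that their sequences can be set beside the values that follow. Each is the 250 bases before the gene's start in build GRCm38.p6, written 5′ to 3′ on the gene's own strand, with every GGAA in capitals, or TTCC where the match is on the other strand. GGAA is the core letters bound by ETS factors, a family that includes known regulators of endothelial genes. Kdr and Emcn form the first pair, and Flt1 and Tek the next.
Kdr: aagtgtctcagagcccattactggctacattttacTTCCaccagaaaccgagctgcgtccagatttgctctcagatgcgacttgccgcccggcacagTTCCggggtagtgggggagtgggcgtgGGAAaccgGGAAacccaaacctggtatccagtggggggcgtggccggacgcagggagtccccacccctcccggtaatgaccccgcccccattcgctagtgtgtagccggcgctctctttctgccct
Emcn: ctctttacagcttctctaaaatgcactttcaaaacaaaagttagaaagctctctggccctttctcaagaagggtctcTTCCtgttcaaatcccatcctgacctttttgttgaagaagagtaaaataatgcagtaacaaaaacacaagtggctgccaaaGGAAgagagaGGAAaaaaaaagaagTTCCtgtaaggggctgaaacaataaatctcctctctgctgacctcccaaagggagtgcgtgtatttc
Flt1: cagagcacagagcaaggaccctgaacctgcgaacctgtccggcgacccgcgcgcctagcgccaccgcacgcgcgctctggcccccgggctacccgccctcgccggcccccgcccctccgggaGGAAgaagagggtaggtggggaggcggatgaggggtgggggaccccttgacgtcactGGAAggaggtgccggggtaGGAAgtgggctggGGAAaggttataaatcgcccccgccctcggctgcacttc
Tek: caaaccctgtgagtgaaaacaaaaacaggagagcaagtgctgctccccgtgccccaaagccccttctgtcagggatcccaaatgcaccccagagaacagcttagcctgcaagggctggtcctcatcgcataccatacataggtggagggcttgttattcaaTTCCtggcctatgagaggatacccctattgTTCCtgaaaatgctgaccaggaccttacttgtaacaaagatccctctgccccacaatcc

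These windows lie at chr5:75978456-75978705 on the minus strand for Kdr, chr3:137340828-137341077 on the plus strand for Emcn, chr5:147726012-147726261 on the minus strand for Flt1 and chr4:94739039-94739288 on the plus strand for Tek. The letters GGAA, on either strand, occurred 4 times in Kdr, 4 times in Emcn, 4 times in Flt1 and 2 times in Tek. The motif is short and common: 93.4% of the 32851 promoters in the table held it, with a median of 3 matches. The longer AGGAAG, which contains GGAA, was present in 4 of the 6 endothelial promoters and in 29.5% of all promoters, while CCGGAAG, which also contains it, was in 0 of 6 and in 6.91%. AGATAA, a sequence of GATA factors, was in 0 of 6 and in 9.99%, and ACAAT, a sequence of SOX factors, in 2 of 6 and in 27.7%. TATAAA was in 1 of 6, that of Flt1, and in 12.4%. All motifs were counted on both strands. The paired genes did not share base composition: the Kdr window was 61.6% G or C with 16 CG dinucleotides, against 40.8% with 1 in Emcn, and the Flt1 window was 70.4% with 23, against 51.2% with 2 in Tek. The median over all promoters was 52.4% with 6 CG dinucleotides.

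The question asked of the genotypes was whether markers of vessel-lining cells differed in the fat of mice without intact Sfrp5. None of the 10 genes passed the test. Of the 10, 9 had a lower mean in the Sfrp5 KO mice, where 55.2% of all named genes were lower, and 1, Emcn, had a higher mean, where 44.8% of named genes were higher. The differences were small, with a median of -0.10 over the 10 genes and a range of -0.16 to 0.07, beside a median of -0.01 over all named genes. The number that passed limma's Benjamini-Hochberg adjustment over 35557 probe sets at a threshold of 0.05 was 0 of 10, where 0.0337% of probe sets passed, and adjusted p ran from 0.633 to 0.876. At an unadjusted p below 0.05 the number was 0 of 10 as well, where 9.97% of probe sets passed in either direction and 5.03% passed as lower. In all 10 genes the values of the genotypes overlapped, and 0.11% of named genes did not overlap.

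**Figure D1:**
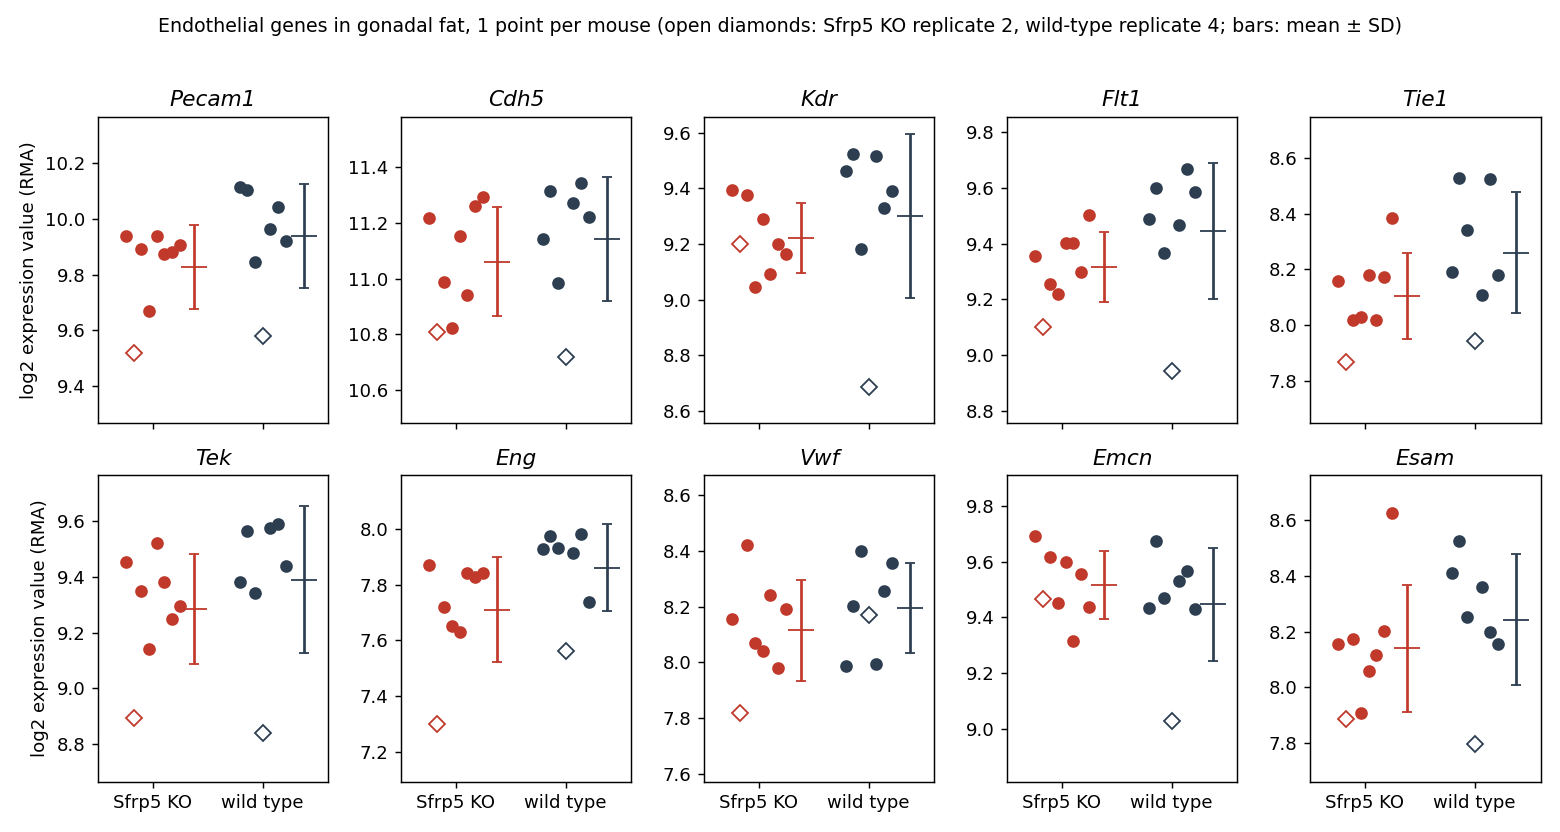
Log2 level of each of the 10 endothelial genes in every mouse, with Sfrp5 KO mice (n = 8) left of wild-type mice (n = 7); points are mice and bars are the mean with SD. The panels have different ranges but the same span, and in every panel the points of the genotypes overlap.

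Among the junction and adhesion genes, Cdh5 encodes VE-cadherin, which builds the adherens junctions between endothelial cells. Cdh5 had a lowest value of 10.81, a median of 11.07 and a highest value of 11.29 in the Sfrp5 KO mice, against 10.72, 11.22 and 11.34 in wild-type mice. The wild-type range enclosed that of the KO mice, and 4 of 8 KO mice lay below the wild-type mean. The difference was -0.08 (SE 0.10), with adjusted p = 0.864. Pecam1, or CD31, is an adhesion molecule of endothelial cells that platelets and leukocytes also carry. Its lowest, median and highest values were 9.52, 9.89 and 9.94 in KO mice, against 9.58, 9.96 and 10.11 in wild-type mice. All 8 KO mice lay below the wild-type mean, although wild-type replicate 4 lay below most of them. The difference was -0.11 (SE 0.09), a fold of 0.926 (95% interval 0.815 to 1.05), with adjusted p = 0.747. Esam, an adhesion molecule of endothelial tight junctions, read 7.89, 8.14 and 8.62 in KO mice, against 7.80, 8.25 and 8.53 in wild-type mice. Its highest value was in KO replicate 8, apart from the other KO mice, and 7 of 8 KO mice lay below the wild-type mean. The difference was -0.10 (SE 0.11), with adjusted p = 0.840, and was -0.17 without KO replicate 8, with adjusted p = 0.619.

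Kdr encodes VEGF receptor 2, the main signalling receptor for VEGF-A in endothelium. Kdr read 9.05, 9.20 and 9.39 (lowest, median and highest) in KO mice, against 8.69, 9.39 and 9.52 in wild-type mice. The KO mice were close together, whereas the wild-type mice spread over a wider range through 1 low animal, replicate 4. The SD was 0.13 in KO mice and 0.29 in wild-type mice, and the difference of -0.08 (SE 0.11) had adjusted p = 0.876. Flt1 encodes VEGF receptor 1, which binds VEGF-A and placental growth factor and acts in part as a trap for VEGF-A. Its values were 9.10, 9.33 and 9.50 in KO mice, against 8.94, 9.49 and 9.67 in wild-type mice. The same wild-type animal was lowest, and 7 of 8 KO mice lay below the wild-type mean. The difference was -0.13 (SE 0.10), a fold of 0.915 (95% interval 0.794 to 1.05), with adjusted p = 0.735.

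Tek encodes Tie2, the receptor for angiopoietins, and Tie1 a related receptor that works in complex with it. Tie1 read 7.87, 8.09 and 8.38 in KO mice, against 7.94, 8.19 and 8.53 in wild-type mice. With 7 of 8 KO mice below the wild-type mean, its difference of -0.16 (SE 0.09) was the most negative of the 10, a fold of 0.897 (95% interval 0.781 to 1.03), with adjusted p = 0.643. Tek read 8.89, 9.32 and 9.52 in KO mice, against 8.84, 9.44 and 9.59 in wild-type mice. KO replicate 2 and wild-type replicate 4 were the lowest mice of their genotypes in both receptors. The difference in Tek was -0.10 (SE 0.11), with adjusted p = 0.834.

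Eng encodes endoglin, a co-receptor through which endothelium reads BMP9 and related ligands. Eng read 7.30, 7.77 and 7.87 in KO mice, against 7.56, 7.93 and 7.98 in wild-type mice. KO replicate 2 lay far below the other KO mice, and 7 of 8 KO mice were below the wild-type mean. The difference was -0.15 (SE 0.09), with adjusted p = 0.633, the lowest of the 10. Vwf, the clotting protein that endothelial cells store in Weibel-Palade bodies and that platelets also hold, read 7.82, 8.11 and 8.42 in KO mice, against 7.99, 8.20 and 8.40 in wild-type mice. Both the lowest and the highest mouse were KO animals, and wild-type replicate 4 was not the lowest wild-type mouse, unlike in the other 9 genes. The difference was -0.08 (SE 0.09), with adjusted p = 0.837. Emcn encodes endomucin, a sialomucin on capillary and venous endothelium, and was the only one of the 10 with a higher KO mean. It read 9.31, 9.51 and 9.69 in KO mice, against 9.03, 9.47 and 9.67 in wild-type mice. The difference was 0.07 (SE 0.09), with adjusted p = 0.856, and 6 of 8 KO mice lay above the wild-type mean. Without wild-type replicate 4, the difference in Emcn was -0.00055, so its sign rested on that mouse.

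**Figure D2:**
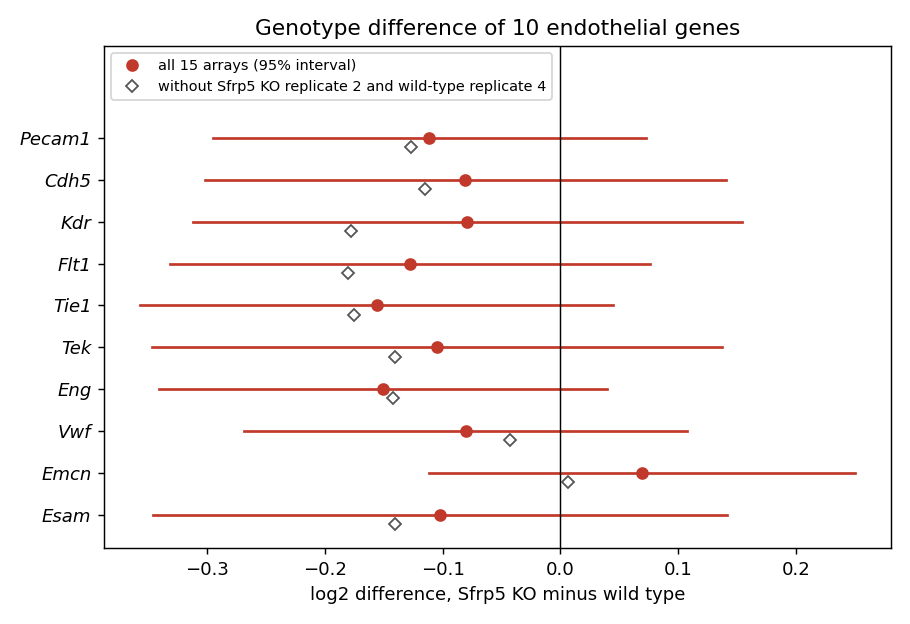
Difference in log2 level, Sfrp5 KO minus wild type, for each of the 10 endothelial genes in all 15 mice with 95% intervals, and without KO replicate 2 and wild-type replicate 4 (diamonds). With all mice, 9 estimates lie below 0 and 1 above, and every interval includes 0.

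Without KO replicate 2 and wild-type replicate 4, the differences were -0.18 for Kdr, -0.18 for Flt1, -0.18 for Tie1, -0.14 for Tek, -0.14 for Eng, -0.14 for Esam, -0.13 for Pecam1, -0.12 for Cdh5, -0.04 for Vwf and 0.01 for Emcn. The median was -0.14, and 9 of the 10 were again lower in KO mice. None passed the adjusted threshold, although 3 had an unadjusted limma p below 0.05, namely Flt1 (0.0147), Kdr (0.0370) and Eng (0.0371). In that setting 2963 of 35557 probe sets had an unadjusted p below 0.05. Leaving out wild-type replicate 4 alone gave a median of -0.18, with all 10 genes lower in KO mice. Of these, 6 had an unadjusted p below 0.05, where 3521 of 35557 probe sets did, and 0 passed the adjusted threshold. That mouse was the lowest wild-type mouse in 9 of the 10 genes, so leaving it out raises their wild-type means by construction.

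Across mice, within a genotype, most of the endothelial genes were high or low together. After each genotype's mean was subtracted, KO replicates 2 and 4 were below their mean in 10 of 10 genes, and so was wild-type replicate 4. KO replicate 2 was the lowest KO mouse in 8 of 10 genes and wild-type replicate 4 the lowest wild-type mouse in 9 of 10. At the other end, KO replicates 1 and 8 were each the highest KO mouse in 4 genes, and wild-type replicates 2 and 6 were each the highest wild-type mouse in 4 genes. The mean level of the 10 genes was 9.03 ± 0.13 in KO mice (SD, n = 8), from 8.79 to 9.16, and 9.12 ± 0.19 in wild-type mice (SD, n = 7), from 8.73 to 9.30.

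**Figure D3:**
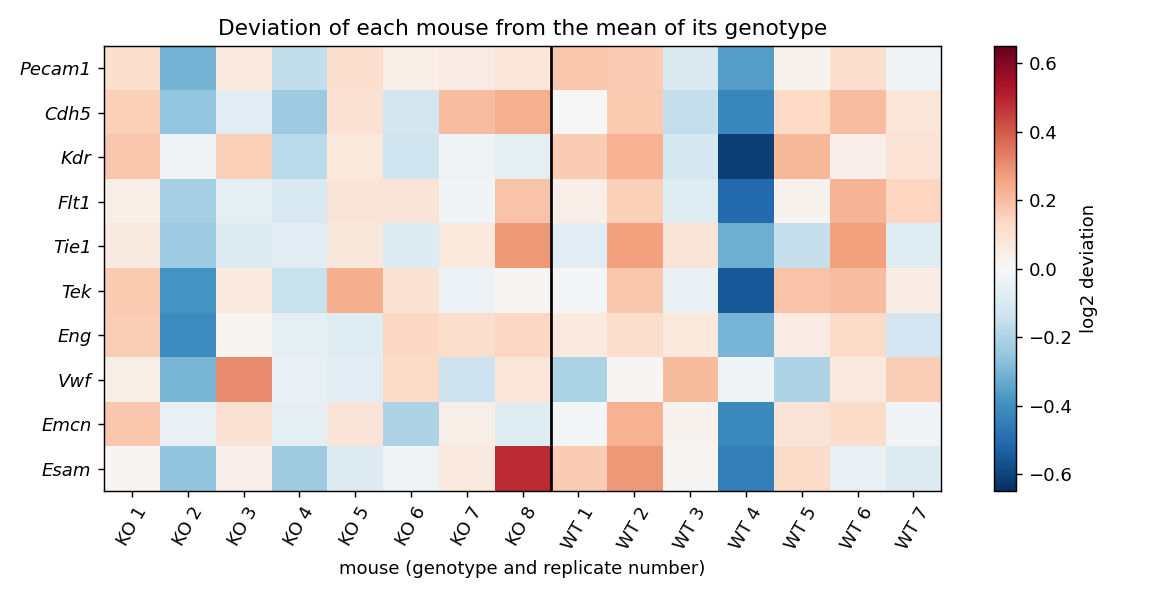
Deviation of each mouse from the mean of its genotype, in log2 units, for the 10 endothelial genes (rows), with KO mice left of wild-type mice; red is above and blue is below the mean. The columns of KO replicate 2, KO replicate 4 and wild-type replicate 4 are below the mean in all 10 genes.

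The 45 pairs among the 10 genes had a median Pearson r of 0.704 over 15 mice (lowest -0.0454, highest 0.895). By permutation of mice within genotype, adjusted by Benjamini-Hochberg over the 45 pairs, 30 pairs passed 0.05 for Pearson r and 16 for Spearman rho. An r of at least 0.6 was reached by 31 of 45 pairs, or 68.9%, where 6.79% of the pairs of an endothelial gene with any other named gene reached it. Without KO replicate 2 and wild-type replicate 4 the median fell to 0.379 and 0 of 45 pairs passed, and without wild-type replicate 4 alone it was 0.460 with 4 pairs passing, so much of the correlation rested on these mice. Within genotypes the median r was 0.591 in KO mice and 0.817 in wild-type mice. These medians include KO replicate 2 and wild-type replicate 4, and are not given without them. By an exact permutation test adjusted over 45 pairs, 2 pairs in KO mice and 1 pair in wild-type mice passed.

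Pecam1 and Tek had the highest r, 0.895 (adjusted p = 0.00432), with a rho of 0.657 (adjusted p = 0.0475) by permutation. Without the 2 mice farthest from the median of Pecam1, which were again KO replicate 2 and wild-type replicate 4, r was 0.620. Kdr and Emcn followed with r = 0.884 (adjusted p = 0.00432) and a rho of 0.793 (adjusted p = 0.0328) by permutation, the highest rho of the 45. This pair kept r = 0.692 without the 2 mice farthest from the median of Kdr, and had r = 0.881 in KO mice and 0.896 in wild-type mice. Flt1 and Tek had r = 0.877 (adjusted p = 0.00472) and a rho of 0.725 (adjusted p = 0.0475) by permutation, with r = 0.556 without the 2 farthest mice. The 2 VEGF receptors, Kdr and Flt1, did not pass, with r = 0.713 (adjusted p = 0.0632) and a rho of 0.400 (adjusted p = 0.233) by permutation. Their r was 0.0303 in KO mice and 0.891 in wild-type mice. Without KO replicate 4 and wild-type replicate 4, the 2 mice farthest from the median of Kdr, r was 0.0505. It was 0.152 without KO replicate 2 and wild-type replicate 4, so the r over all mice rested on such sets, both with wild-type replicate 4. The wild-type r without that mouse is not given. Whether the genotypes differ in this r was not tested. The Tie receptors, Tie1 and Tek, had r = 0.640 (adjusted p = 0.0248) and a rho of 0.368 (adjusted p = 0.291) by permutation, with r = 0.703 without the 2 mice farthest from the median of Tie1 and 0.229 without KO replicate 2 and wild-type replicate 4.

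Over all mice, Vwf stood outside this pattern. Its 9 pairs had a median r of 0.194 (lowest -0.0454, highest 0.349), and 0 of 9 passed for r or for rho. The 36 pairs without Vwf had a median r of 0.717 and none below 0.401, and 30 of these passed for r. Without KO replicate 2 and wild-type replicate 4 the medians were -0.0614 for the pairs with Vwf and 0.467 for the others. The gap was narrower in KO mice, with medians of 0.442 for the pairs with Vwf and 0.634 for the others. In wild-type mice these were -0.0927 and 0.870. The difference between these sets of pairs is a description and was not tested. The SD of Vwf within genotypes was 0.17, beside 0.16 for Emcn and 0.23 for Esam.

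**Figure D4:**
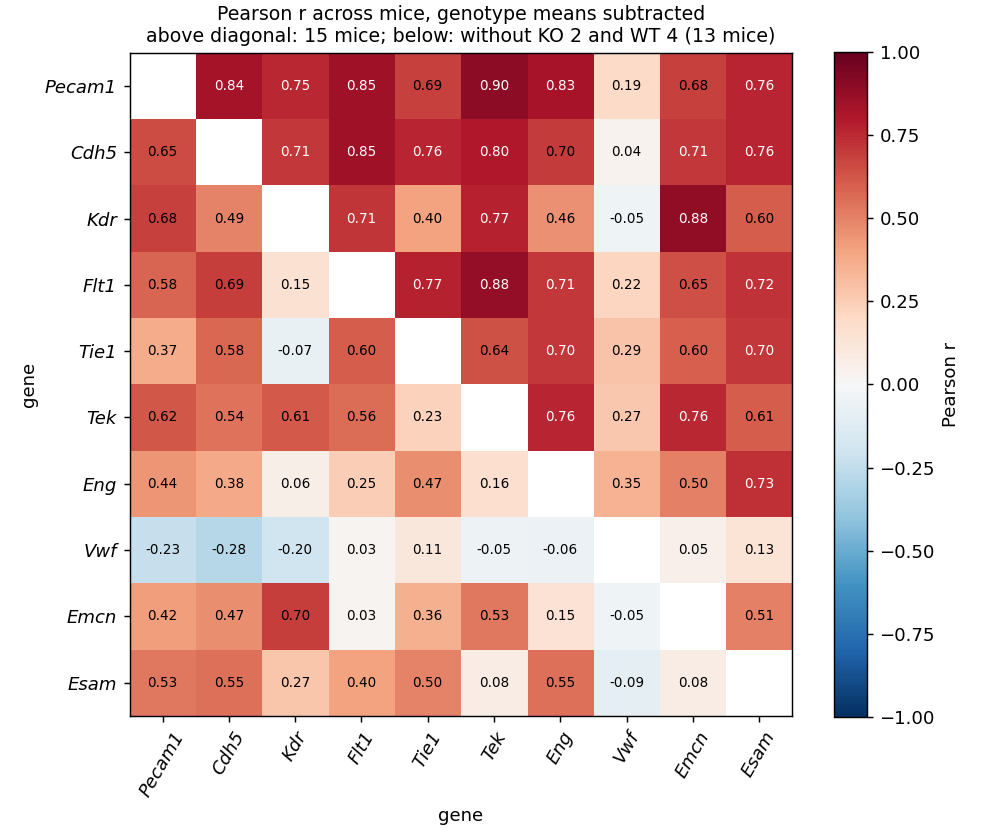
Pearson r between every pair of the 10 endothelial genes after subtraction of genotype means, on a colour scale from -1 to 1. Above the diagonal r is over 15 mice (8 Sfrp5 KO, 7 wild type), and below it without KO replicate 2 and wild-type replicate 4. Above the diagonal, pairs with Vwf hold r of at most 0.349, and the other 36 pairs hold 0.401 to 0.895. Below it, pairs with Vwf hold at most 0.113, and the other 36 pairs hold -0.0710 to 0.695.

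Likeness to each gene over all 19937 other named genes was measured by the same r, as a description with no test. Among the 199 genes nearest to a gene, which make up the top 1%, stood 5 other endothelial genes of the 10 for Kdr, 4 for Flt1, 4 for Emcn, 3 for Pecam1, 3 for Tek, 2 for Cdh5, 1 for Tie1, 1 for Eng, 0 for Esam and 0 for Vwf. Without KO replicate 2 and wild-type replicate 4 the counts were 2 for Kdr, 1 for Emcn and 0 for the other 8. With all mice, Kdr and Emcn were each other's nearest gene of all. Without those 2 mice their r was 0.695, below that of Maged2 with Kdr (0.783) and with Emcn (0.705). In the brackets that follow, the second value is r without those 2 mice. Nearest to Tek were Adgrf5 (r = 0.931, 0.700) and Adgrl4 (0.923, 0.730), adhesion G protein-coupled receptors. Among those nearest to Flt1 were Efna1 (0.941, 0.770), an ephrin ligand, and Ptprb (0.933, 0.742), the vascular endothelial phosphatase that acts on Tie2. Cdh5 was nearest to Magi1 (0.954, 0.910), a junctional scaffold, and Elk3 (0.945, 0.886), an ETS factor. The nearest genes of Pecam1 were Stom (0.949, 0.876), Dctn5 (0.948, 0.948) and Pde7b (0.947, 0.876). Tie1 lay nearest to Elp3 (0.905, 0.846) and Eng to Rras2 (0.930, 0.810). To the mean of the standardised 10 genes, the nearest others were Ablim3 (0.942, 0.858), Ifnar2 (0.936, 0.881), Efna1 (0.933, 0.773), Ripor1 (0.931, 0.731) and Nus1 (0.931, 0.940).

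The genes nearest to Esam included some known from myeloid cells, and those nearest to Vwf did so only through Ngp. In the next brackets the second value is again r without KO replicate 2 and wild-type replicate 4. Esam lay close to Elmo2 (r = 0.942, 0.951), Gtf3a (0.940, 0.903), Mrc1 (0.913, 0.888), a mannose receptor of macrophages, and Spi1 (0.913, 0.945), the transcription factor PU.1 of myeloid cells. Vwf lay closest to Ngp (0.879, 0.854), a granule protein of neutrophils. Ngp read a mean of 5.33, and whether it was detected above background could not be assessed. After it came Ptp4a2 (0.836, 0.779), Ptges2 (0.818, 0.766), Olfr1414 (0.799, 0.718) and Ebpl (0.797, 0.740). Of 8 macrophage genes, 7 had a higher mean in KO mice, where 44.8% of all named genes did, and 0 passed the adjusted threshold. The mean of the 8 macrophage genes ran from 8.73 to 9.97 in KO mice, with KO replicate 8 highest, and from 8.97 to 9.50 in wild-type mice. Esam followed that mean with r = 0.858 (adjusted p = 0.00233) and a rho of 0.836 (adjusted p = 0.00735) by permutation, adjusted over the 140 relations of 10 endothelial genes with 14 list means. Its r was 0.750 without KO replicates 2 and 8, the mice farthest from the median of the macrophage mean, and 0.903 (permutation adjusted p = 0.0420) without KO replicate 2 and wild-type replicate 4. Cdh5 followed it too, with r = 0.786 (adjusted p = 0.00140, from the smallest p the permutations can give) and a rho of 0.914 (adjusted p = 0.00210), and with r = 0.837 without KO replicates 2 and 8. Without KO replicate 2 and wild-type replicate 4 its r was 0.791, but it no longer passed (permutation adjusted p = 0.0896). For Vwf the r was 0.241 (permutation adjusted p = 0.736) and the rho 0.111 (adjusted p = 0.888), with -0.126 without KO replicates 2 and 8. The part of macrophage number in the level of Esam was not tested.

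**Figure D5:**
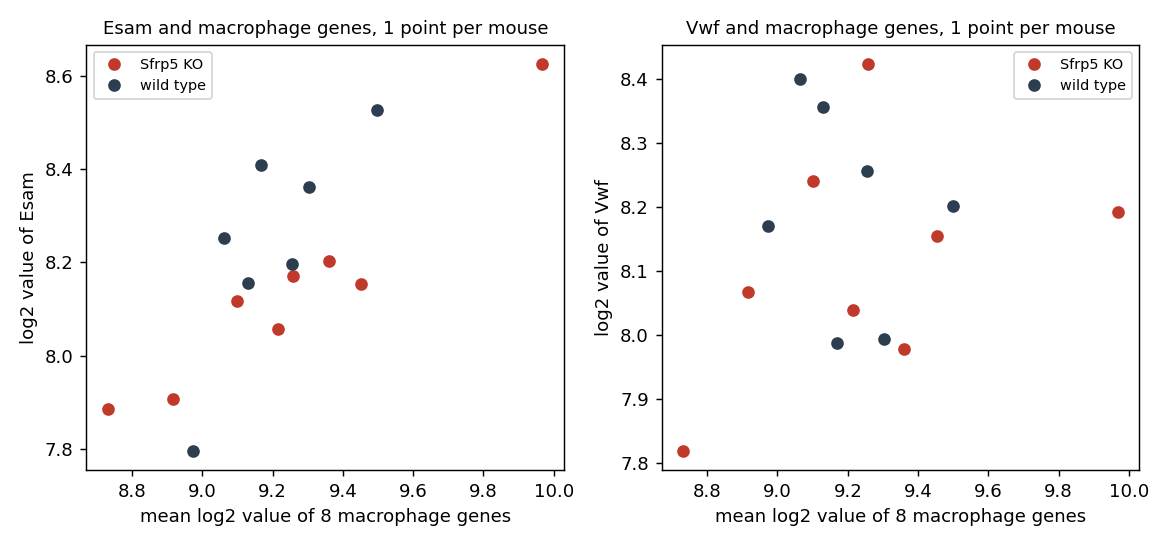
Log2 level of Esam (left) and Vwf (right) against the mean log2 level of 8 macrophage genes, 1 point per mouse, red for Sfrp5 KO (n = 8) and dark for wild type (n = 7). KO replicate 8, at 9.97 on the horizontal axis, holds the highest Esam value of 8.62, and r after subtraction of genotype means is 0.858 for Esam and 0.241 for Vwf.

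Of the 14 lists of cell types and vessel types, further endothelial genes had the highest median r with the 10. The mean of these 22 genes had a median r of 0.801 with the 10 genes, and 7 of the 10 relations passed for r and 3 for rho. For 6 artery genes the median was 0.750 (6 passed for r, 3 for rho), for 6 capillary genes 0.670 (5 for r, 1 for rho), for macrophage genes 0.637 (5 for r, 3 for rho) and for 8 adipocyte genes 0.501 (2 for r, 1 for rho). For epididymis genes it was -0.506 (2 passed for r, 0 for rho), and -0.0912 without KO replicate 2 and wild-type replicate 4. The lists of mural cells, veins, lymphatic endothelium, platelets, progenitors, mesothelium, lymphocytes and skeletal muscle had medians between -0.361 and 0.196, and 0 of their relations passed for r or rho. Without those 2 mice the median was 0.60 for the 22 endothelial genes, with 1 relation passing, that of Cdh5 (r = 0.876, permutation adjusted p = 0.0280). It was then 0.531 for macrophage genes, with 1 relation passing, that of Esam, 0.524 for capillary genes with 0 passing, 0.506 for artery genes with 0, and 0.351 for adipocyte genes with 0. By single genes with all mice, 13 of the 22 had a median r of at least 0.6 with the 10. They were led by Myct1 (0.773), Erg (0.765), Gpihbp1 (0.760) and Fli1 (0.758). The same cut was reached by 4 of 6 capillary, 3 of 6 artery, 3 of 8 macrophage, 3 of 11 mural and 1 of 8 adipocyte genes. The share of all named genes that reach it was not computed. Lowest among the 22 further endothelial genes were Tal1 (-0.483), Icam2 (-0.119), Gata2 (-0.0687) and Plvap (0.159), so not all of them followed the 10. Erg and Fli1 are ETS factors of endothelium and blood cells, and Gpihbp1 carries lipoprotein lipase across capillaries.

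Differences between genotypes in the rest of the endothelial pathways were also small, and no gene in the lists named in the next sentences passed the adjusted threshold. The counts of lower and higher genes that follow stand beside 55.2% lower and 44.8% higher over all named genes. Of the 22 further endothelial genes, 14 were lower and 8 higher in KO mice, with a median of -0.08. The lowest p belonged to Gpihbp1 at -0.15 (SE 0.09) and Ptprb at -0.15 (SE 0.09). Of 7 measured VEGF ligands and co-receptors, with the lymphatic receptor, 5 were lower and 2 higher. Pgf, the placental growth factor that binds Flt1, read 6.67 ± 0.26 in KO mice and 6.90 ± 0.11 in wild-type mice, a difference of -0.22 (SE 0.10, adjusted p = 0.480), and Vegfa, the main ligand of Kdr, differed by -0.14 (SE 0.10). Of the 3 angiopoietins that bind Tek, Angpt2 differed by -0.15 (SE 0.10), Angpt4 by 0.05 (SE 0.07) and Angpt1 by 0.14 (SE 0.24). Of 12 genes of the endoglin and BMP axis, 8 were lower and 4 higher, with Bmpr2, the type II receptor that works with endoglin, at -0.10 (SE 0.06) and Id3, a target of BMP signals, at 0.16 (SE 0.11). Of 8 vascular Notch genes, 7 were lower and 1 higher, and Notch1, a receptor that shapes arteries and sprouts, read 7.76 ± 0.14 in KO mice and 7.95 ± 0.11 in wild-type mice, a difference of -0.20 (SE 0.07, adjusted p = 0.329). By vessel type, 5 of 6 artery genes, 4 of 6 capillary genes and 2 of 4 measured vein genes were lower in KO mice. Car4, a carbonic anhydrase of capillary endothelium, had the widest difference of these at -0.38 (SE 0.15), with 9.43 ± 0.23 in KO mice and 9.81 ± 0.39 in wild-type mice and adjusted p = 0.411.

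Mural cells, which wrap the vessels, were measured by 11 genes, of which 6 were lower and 5 higher, with a median of -0.00215. Over all named genes, 55.2% were lower and 44.8% higher. Acta2, the smooth muscle actin, differed by -0.24 (SE 0.14), and Abcc9, a channel subunit of pericytes, by -0.17 (SE 0.09). Des, an intermediate filament of muscle and mural cells, differed by 0.13 (SE 0.06, adjusted p = 0.499). In the other direction to most endothelial genes, 7 of 7 mesothelium genes had a higher mean in KO mice, where 44.8% of all named genes did. Among them, Upk1b differed by 0.54 (SE 0.22, limma's adjusted p = 0.414). The part of the outer lining of the fat pad in the endothelial differences was not tested.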

How the data were processed

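Members and gene lists were chosen with earlier results of these data known. The authors deposited log2 expression values per probe set for 15 arrays, 35557 probe sets each. Tools named in the submitters' processing notes, without their roles, are RMA, Affymetrix Expression Console 1.1.2800.19935, affy 1.18 and limma. RMA corrects background, evens out the distributions of arrays and summarises probes, which takes out any shift that most genes share. The genome build was not given in the sources used here. Detection above background could not be assessed, no filter on dim probe sets was set, and the number of arrays limits the precision.

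The platform annotation named 21789 probe sets with 1 symbol and 1621 with several, and left 12147 unnamed. By gene identifier, 21698 matched RefSeq's GRCm38.p6 table. With the brightest probe set of each gene over all arrays, 19938 genes were named. Named in the text are the 10 genes, Sfrp5, the lowest-p genes of each list, among its 3 lowest, and the genes nearest to a gene or to their mean. Myct1, Fli1, Erg, Tal1, Icam2, Gata2 and Plvap were named after their values were seen.

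The genotypes were compared by limma 3.58.1 (lmFit, eBayes, R 4.3.3) with a two-sided test and no covariate, and Benjamini-Hochberg adjustment across every probe set and a threshold of 0.05. Intervals are the model's 95% intervals. Correlations used values less genotype means, with permutation within genotype (100000 resamples, two-sided, smallest p 1e-05). Replicates are separate mice per the labels. The fit was tested on simulated data. Python 3.11.15, numpy 2.4.6, scipy 1.17.1, pandas 2.3.3 and matplotlib 3.10.9 were used. The alternatives were normalization, a dim filter, the variance model, array weights, probe set means, arrays left out, the replicate number as a block and other thresholds.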

Additional observations from a re-analysis of the deposited data

Results flagged for a closer look

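In 6 of 22 sets of values (the 10 endothelial genes and Sfrp5, in each genotype), 1 mouse lay far from the others by Dixon's criterion. Chance alone meets it in about 1 of 20 independent sets. The 22 sets are not independent, because the same mice recur in genes that vary together, so that rate is no measure of this count.

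KO replicate 2 had the lowest Eng value of the KO mice, 7.30, with the next at 7.63. KO replicate 8 had the highest Esam value, 8.62, with the next at 8.20. Wild-type replicate 4 had the lowest value of the wild-type mice in 4 genes: Kdr at 8.69 (next 9.18), Flt1 at 8.94 (next 9.37), Tek at 8.84 (next 9.34) and Emcn at 9.03 (next 9.43). KO replicate 2 and wild-type replicate 4 had the highest epididymis means of their genotypes, 10.69 and 7.11, and KO replicate 8 the highest macrophage mean, 9.97, and the part of either in these values was not tested.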

How the results depend on the processing

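The number of endothelial genes past the adjusted threshold was 0 under every alternative run. At an unadjusted p below 0.05 it was 0 to 6, highest without wild-type replicate 4, where 3521 of 35557 probe sets were below 0.05. Of 250 differences recomputed for single genes, 246 kept their direction. The 4 that turned were Emcn, at -0.00055 without wild-type replicate 4 (up to 0.11 with another mouse left out), and, with KO replicates 7 and 8 as the only KO mice, Cdh5 at 0.14, Tie1 at 0.018 and Esam at 0.17. Those 2 KO mice carry a number in the submitters' descriptions, of unstated meaning, in the range of the wild-type mice. Array positions run from 8 to 15 in KO and 1 to 7 in wild-type mice, so order and genotype cannot be told apart. With 1 mouse left out, 9 to 10 genes were lower in KO mice, and their median difference ran from -0.18 to -0.07, lowest without wild-type replicate 4.

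The limma count of 12 probe sets past the threshold was unstable: 6 with quantile normalization, 7 with median centring, 26 without dim probe sets, 48 with a trended robust prior, 25 with array weights, 2 without KO replicates 7 and 8, 98 at an adjusted p below 0.1 and 3544 at an unadjusted p below 0.05. It was 0 with KO replicates 7 and 8 as the only KO mice (3392 at an unadjusted p below 0.05) and 0 without KO replicate 2 and wild-type replicate 4 (2963). Leaving out 1 mouse gave 0 to 133 (2985 to 4020), with 0 without KO replicate 2, 5 or 8 or wild-type replicate 2, 3, 4 or 5, 32 without wild-type replicate 6 and 133 without KO replicate 1. The Sfrp5 difference stayed negative in 25 alternatives and passed in 15, missing in each where the count was 0, with adjusted p up to 0.316. With the replicate number as a block the count was 0 (3098), the Sfrp5 difference was -1.28 (adjusted p = 0.300), and the median difference of the 10 genes was -0.12. Same-numbered mice had r from -0.117 to 0.248 between their deviations, and whether they share more than a number was not tested.

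The median r over pairs was 0.379, with 0 of 45 pairs passing, without KO replicate 2 and wild-type replicate 4. With 1 mouse left out it ran from 0.460 to 0.744, with 4 to 33 pairs passing, both lowest without wild-type replicate 4. Within KO mice 2 pairs passed and within wild-type mice 1, in smaller sets of mice. Causes of these shifts were not tested.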

Other observations

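Blood and immune cell genes gave values not described above. Over all named genes, 55.2% were lower and 44.8% higher in KO mice. Of 6 measured platelet genes, 4 were lower and 2 higher in KO mice. Ppbp, a platelet chemokine, read 8.08 ± 0.26 in KO mice and 8.45 ± 0.23 in wild-type mice, a difference of -0.37 (SE 0.12, limma's adjusted p = 0.300), while Pf4, another platelet chemokine, differed by 0.12 (SE 0.08). Both measured red cell genes were lower, Slc4a1 by -0.13 (SE 0.07) and Alas2 by -0.14 (SE 0.08). Of 5 measured lymphatic genes, 3 were lower and 2 higher, with Pdpn, the surface protein podoplanin that stromal and mesothelial cells also carry, at 0.23 (SE 0.11, adjusted p = 0.523). None of these passed the adjusted threshold.

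Adhesion molecules of activated endothelium did not pass either: Vcam1 differed by 0.16 (SE 0.11), Icam1 by -0.11 (SE 0.08) and Sele by 0.00519 (SE 0.08). The angiopoietins, which bind Tek, differed in sign in their median r with the 10 endothelial genes over all mice. It was -0.497 for Angpt1, -0.463 for Angpt4 and 0.468 for Angpt2, with a median over the 3 genes of -0.463. Values without KO replicate 2 and wild-type replicate 4 are not given for these r. Wild-type replicate 4 had the highest wild-type mean of the 3 angiopoietins, 7.46. KO replicate 2 read 7.48, where KO mice ran from 7.15 to 7.61. The part of those 2 mice in these r was not tested.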
